A study of Mus musculus with 6 samples.

Results

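Smgc and Muc19 are a pair of secretory protein genes that begin at the same place on mouse chromosome 15, and their 2 rows were read library by library from the 43280 rows of the raw count table of female submandibular glands (SMGs). The pair was chosen by its counts in these same libraries, which were already known to vary widely, so the levels and fold changes of Smgc and Muc19 are given as a description, with no p-value.

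The study asked which transcripts change in the SMG when mice lose a pair of heparan sulfate 3-O-sulfotransferases. Its 6 libraries are 3 WT and 3 DKO adult female glands, numbered 1, 4 and 5 in each group, on a C57BL/6 background, the WT animals being littermates. The DKO animals carry a global loss of function of Hs3st3a1, through a frameshift deletion in exon 1 made with zinc finger nucleases, and of Hs3st3b1, through a LacZ cassette on the same chromosome. Several founder lines were made, and which of them gave these glands was not stated, nor was the exact age.

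Smgc encodes submandibular gland protein C. It is a secretory product of the terminal tubule cells of the neonatal gland and is retained in the adult in intercalated ducts, mainly of females, the short ducts that lead out of each acinus. Muc19 encodes a large gel-forming mucin, the main mucin of the mucous cells of the mouse sublingual gland, which lies against the SMG. Both transcripts are spliced from a common first exon, so that one start site leads to either a small glycoprotein or a gel-forming mucin.

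In GENCODE M21 (GRCm38), Smgc (ENSMUSG00000047295.16) is a protein-coding gene on the plus strand of chromosome 15, from 91838265 to 91861438, a span of 23.2 kb with 10 annotated transcripts. Muc19 (ENSMUSG00000044021.14) runs on the same strand from 91838326 to 91934555, a span of 96.2 kb with 4 annotated transcripts. The longest Smgc transcript, Smgc-201, has 18 exons and 2977 bp, and the longest Muc19 transcript, has 43 exons and 9104 bp. Muc19 is listed there as a processed transcript and not as protein coding, with a tag for an error of the reference genome, so its annotated exon length may not be that of the whole mucin. The 2 genes share 95 bp of exon, from 91838326 to 91838420, which is 2.79% of the annotated exon bases of Smgc and 1.04% of those of Muc19. Downstream of it the exons of Smgc all lie inside the first intron of Muc19, which is 32.1 kb long, against 2.91 kb for the first intron of Smgc. No annotated gene of the opposite strand overlaps the locus, which matters here because the libraries were unstranded.

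**Figure D1:**
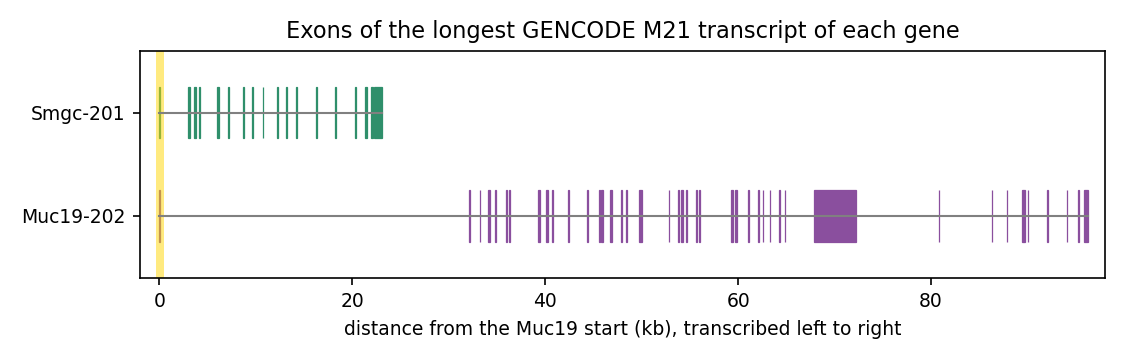
Exons of the longest annotated transcript of Smgc (18 exons) and of Muc19 (43 exons), with the distance from the Muc19 start in kb on the horizontal axis and transcription from left to right. The yellow band, drawn wider than the exon, marks the shared first exon of 95 bp, after which the exons of Smgc fill the first intron of Muc19.

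The splice that decides between the 2 products is shown as the last 30 bases of the shared exon in lower case (chr15:91838391-91838420, plus strand, GRCm38) followed in capitals by the first 30 bases of the second exon of each transcript, 5′ to 3′. The second exon begins at chr15:91841332-91841361 in Smgc-201 and at chr15:91870472-91870501 in the longest Muc19 transcript. The lower-case part is one and the same stretch, and only 6 of the 30 positions in capitals hold the same base, so a read that crosses the junction can be told apart.
Smgc: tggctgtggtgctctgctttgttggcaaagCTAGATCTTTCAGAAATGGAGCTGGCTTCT
Muc19: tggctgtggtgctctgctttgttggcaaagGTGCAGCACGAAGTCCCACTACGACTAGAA

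Because the longest transcripts of both genes begin in the shared exon, the sequence before that start is shown once. It is given as the 250 bases before the RefSeq start of Smgc (chr15:91838078-91838327, plus strand, GRCm38.p6), with the letters TATAAA in capitals. The end of this window reaches just into the shared exon, which begins at 91838326. GENCODE begins the Smgc gene at 91838265, also inside the window, so not every annotated Smgc transcript starts in the shared exon. RefSeq's promoter table held no separate entry for Muc19.
Promoter: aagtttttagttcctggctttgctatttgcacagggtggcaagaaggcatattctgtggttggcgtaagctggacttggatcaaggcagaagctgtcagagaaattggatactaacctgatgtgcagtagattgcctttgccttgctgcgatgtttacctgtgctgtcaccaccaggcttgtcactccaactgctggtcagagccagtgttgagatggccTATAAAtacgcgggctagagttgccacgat
TATAAA was searched on both strands and was found once, its first base 30 bases before the start. Of 32851 windows of the same length, 4063 (12.4%) held these letters on either strand. The match is a description of the sequence and was not tested as a site.

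Total counts ranged from 23674258 to 29611975 per library. The targeted genes did not separate the groups, so DKO here and below is the label of a library and not a genotype checked in these counts. Hs3st3a1 had 15, 11 and 15 counts in the WT libraries 1, 4 and 5 and 11, 8 and 13 in those labelled DKO (log2 fold change -0.22, SE 0.61, adjusted p = 0.947, DESeq2). Hs3st3b1 had 173, 203 and 261 counts against 255, 120 and 189 (log2 fold change -0.04, SE 0.24, adjusted p = 0.976). Which part of either transcript was counted in these libraries is not given in the sources used here, and the cause of the similar counts was not tested. Of the 18606 rows tested between DKO and WT, 539 passed an adjusted p of 0.05 in DESeq2 (2.9%), of which 189 (1.02%) were raised in DKO and 350 (1.88%) were lowered, with a median log2 fold change of 0.00. Each library is a separate gland in the labels, which do not say more of how the replicates were obtained, so p-values measure the spread between these glands.

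Smgc was among the most abundant transcripts of every gland, but at levels that differed up to 15.9-fold. It had 295383, 25147 and 207781 counts in the WT libraries 1, 4 and 5, and 38539, 112573 and 15983 counts in DKO 1, 4 and 5. It was the 7th most abundant row in WT 1 and the 42nd in DKO 5, and it held ranks 30, 10, 24 and 15 in WT 4, WT 5, DKO 1 and DKO 4. In WT 1 this single row took 1.25% of all counts (exact Clopper-Pearson 95% interval 1.24 to 1.25), and in DKO 5 it took 0.0618% (0.0609 to 0.0628). These intervals cover counting error only and are far narrower than the spread between glands.

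After division by the DESeq2 size factor of each library, Smgc stood at 292306, 24599 and 186101 normalized counts in the WT libraries 1, 4 and 5. The libraries labelled DKO gave 36565, 117664 and 18428. WT 1 and WT 5 were the highest of the 6, followed by DKO 4, while WT 4 lay below both DKO 1 and DKO 4, so the groups overlapped. The mean was 167669 ± 134802 normalized counts (SD, n = 3) in WT and 57552 ± 52842 (SD, n = 3) in DKO. The log2 fold change was -1.54 (SE 1.02, 95% interval -3.54 to 0.45). It stayed below zero with each library left out, between -2.61 without DKO 4 and -0.87 without WT 1. Differences between glands in the number of Smgc-expressing cells and in Smgc RNA per cell cannot be told apart in these bulk samples.

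The glands of each group differed widely among themselves in Smgc. Within WT the highest library had 11.9 times the normalized count of the lowest, and within DKO 6.39 times. Among the 13323 rows with a mean of at least 20 normalized counts, 0.473% had a range as wide within WT, on the log2(normalized count + 1) scale, and 0.781% within DKO. The median row differed 1.18-fold between its highest and lowest WT library and 1.25-fold between its highest and lowest DKO library.

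Muc19 took another course. It had 120 and 53 counts in WT 1 and WT 4 but 62150 in WT 5. In the libraries labelled DKO it had 3906 counts in DKO 1, then 27 and 47 in DKO 4 and DKO 5. Muc19 was thus the 20th most abundant row of WT 5, with 0.227% of its counts (0.226 to 0.229), and the 339th of DKO 1, with 0.0138%. In the other 4 libraries its rank lay between 9498 and 12339. The lowest value, in DKO 4, was 0.912 CPM (0.601 to 1.33), where CPM is the count scaled to the library total. Every library thus had counts in the Muc19 row. Whether the low counts all came from Muc19 transcripts was not tested, and the interval covers counting error only.

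In normalized counts Muc19 stood at 119, 51.8 and 55665 in the WT libraries 1, 4 and 5 and at 3706, 28.2 and 54.2 in those labelled DKO. The library with the highest value was WT 5 and the next was DKO 1, so each labelled group held 1 gland with abundant Muc19 and 2 glands with little, and the groups overlapped. The means, 18612 ± 32089 (SD, n = 3) in WT and 1263 ± 2116 (SD, n = 3) in DKO, each rest on 1 library. The log2 fold change was -3.88 (SE 2.55, 95% interval -8.87 to 1.11). It turned to 3.89 (SE 2.13) without WT 5 and moved to -8.82 (SE 2.61) without DKO 1. Muc19 was 1 of 31 rows that DESeq2 excluded from testing because a single library dominated the fit (Cook's filter).

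**Figure D2:**
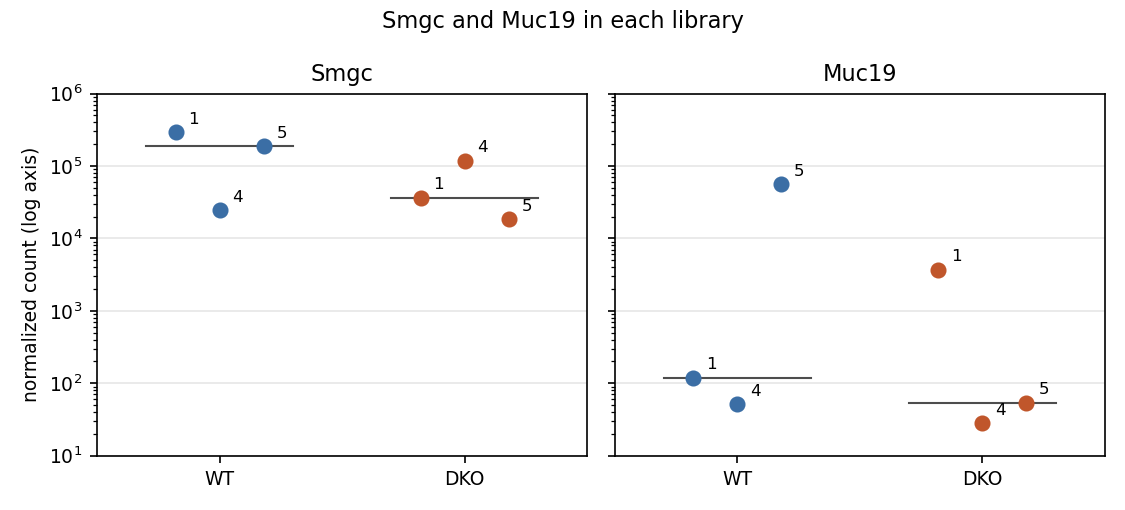
Normalized counts (log axis) of Smgc and Muc19 in each library, by group. Points are single libraries with their label number, and lines mark the median of the 3 libraries of a group. Smgc spreads from 18428 to 292306 with both groups overlapping, while Muc19 lies between 28.2 and 119 in 4 libraries and reaches 3706 in DKO 1 and 55665 in WT 5.

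The range of Muc19 was 1074-fold within WT and 131-fold within DKO. Only 0.0525% of the 13323 rows had a range as wide within WT, and 0.12% within DKO. Over all 6 libraries the highest value was 1972 times the lowest, a range that 0.06% of rows reached. For Smgc, 0.991% of rows reached its range over all 6 libraries.

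**Figure D3:**
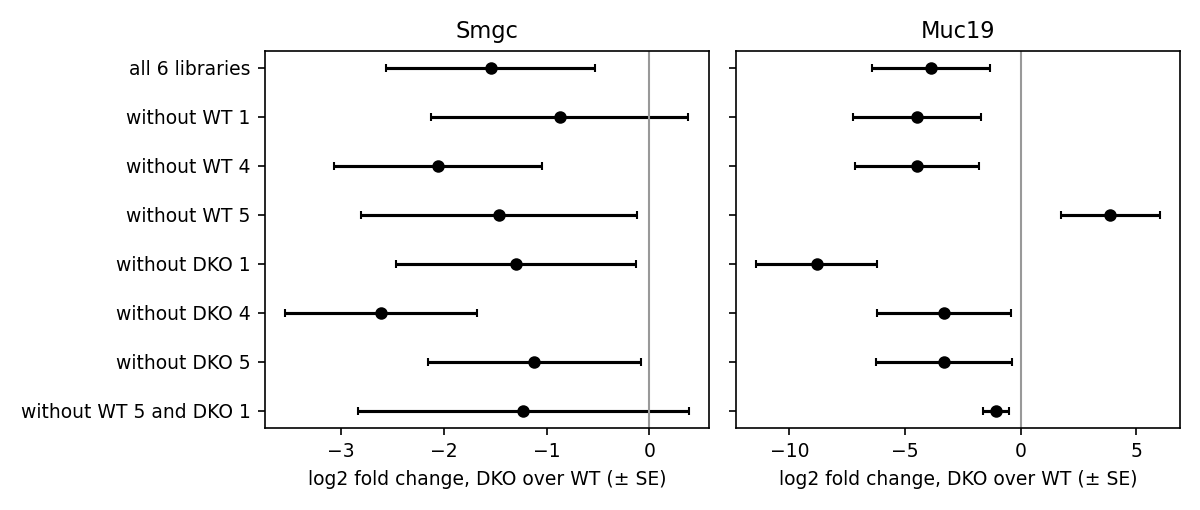
Log2 fold change of DKO over WT from DESeq2 (points, with bars of 1 SE on either side) for Smgc and Muc19 with all 6 libraries, with each library left out in turn, and without both WT 5 and DKO 1. The value for Smgc stays below zero, from -2.61 to -0.87, while that for Muc19 runs from -8.82 without DKO 1 to 3.89 without WT 5.

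With both WT 5 and DKO 1 left out, a setting added after the data were seen, the log2 fold change of Muc19 was -1.05 (SE 0.57), over 2 libraries a group with 53 and 120 counts against 27 and 47. That of Smgc was -1.23 (SE 1.61) in the same fit. The value of -3.88 for Muc19 over all 6 libraries thus rested on WT 5 and DKO 1.

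The 2 products of the locus did not vary together. WT 1 had the most Smgc and, with 120 counts, little Muc19, whereas WT 5, with the next highest Smgc, had the most Muc19. DKO 1, which followed WT 5 in Muc19, had less Smgc than WT 1, WT 5 and DKO 4. There were 2462, 474 and 3.34 counts of Smgc for each count of Muc19 in the WT libraries 1, 4 and 5, and 9.87, 4169 and 340 in DKO 1, 4 and 5. Muc19 made up 23.0% of the counts of the pair in WT 5 and 9.20% in DKO 1. In the other 4 libraries its share of the pair lay between 0.0240% in DKO 4 and 0.293% in DKO 5.

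Since Muc19 has the longer annotated exons, the levels of the 2 genes were compared per kb of the exon that each does not share with the other, 3.32 kb for Smgc and 9.01 kb for Muc19. On that scale Smgc was the more abundant in all 6 libraries. WT 5, the library where they came closest, held 56139 normalized counts per kb of Smgc and 6178 of Muc19, a ratio of 9.09. The ratio was 26.8 in DKO 1 and between 924 and 11332 in the other 4 libraries.

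On the log2 scale, the count of Muc19 over that of Smgc averaged -7.30 ± 4.96 (SD, n = 3) in WT and -7.91 ± 4.38 (SD, n = 3) in DKO. The difference of -0.61 was far smaller than the spread within either group. It changed sign without WT 5 (2.17) and without DKO 4 (1.44). How reads inside the shared exon were assigned is not given in the sources used here.

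Profiles over the 6 libraries were compared by the root mean square distance between log2(normalized count + 1) values, each row centred on its own mean. The distance between Smgc and Muc19 was 3.82. Of the 13322 other rows, 99.9% lay closer to Smgc than Muc19 did, and Muc19 ranked 13309th. The range of Muc19, which 0.06% of rows reached over all 6 libraries, sets all its distances high, that to Smgc included. The rank of Muc19 therefore cannot tell a different profile from a wider range. Seen from Muc19, Smgc ranked 1267th and 9.50% of the rows lay closer.

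The 5 rows with the profile most like that of Smgc were Tll1, 5530400C23Rik, Abcc3, Pcsk1 and Serpinb11, at distances of 0.433 to 0.610. They come from 5 chromosomes, none of them chromosome 15. Tll1, which encodes a tolloid-like metalloprotease, had 1909, 216 and 1349 counts in WT 1, 4 and 5 and 234, 399 and 140 in DKO 1, 4 and 5. Abcc3, an organic anion efflux transporter, had 490, 102 and 385 against 119, 173 and 52. Both were highest in WT 1, then WT 5, and lowest in DKO 5, the same order of high and low libraries as Smgc at these ends.

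Pcsk1, a proprotein convertase of secretory granules, had 44, 11 and 39 counts in WT and 11, 22 and 2 in DKO. Serpinb11, of the serpin family, had 400, 63 and 353 against 69, 99 and 52. The row 5530400C23Rik had 153, 17 and 76 against 28, 73 and 4. All 5 rows ordered the WT libraries as Smgc did, 1 above 5 above 4, and the DKO libraries as 4 above 1 above 5, which is a property of how they were chosen. In all 5 the groups overlapped, as they did for Smgc, and the highest library exceeded the lowest 6.60-fold to 32.8-fold.

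**Figure D4:**
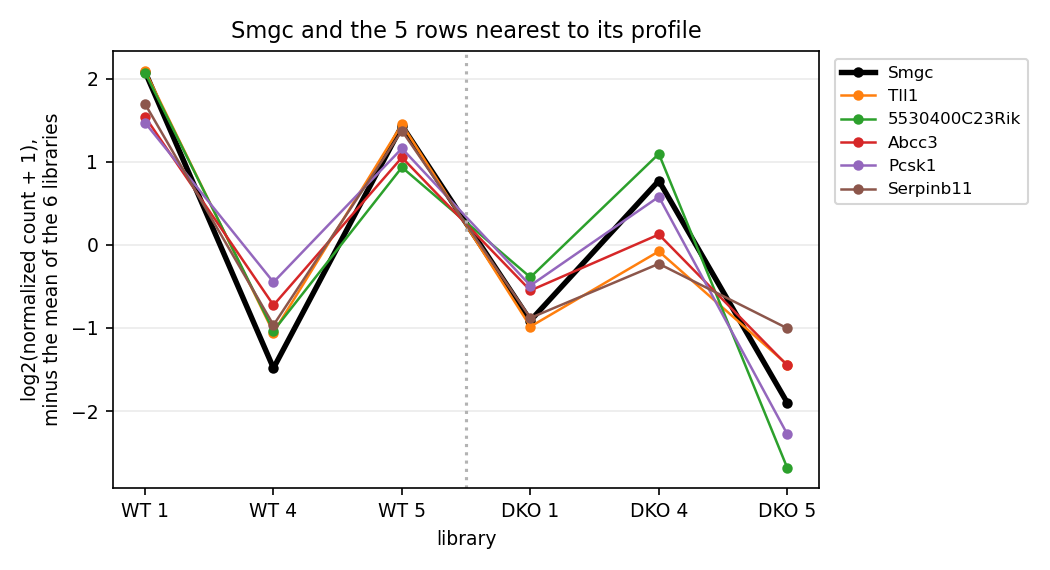
Log2(normalized count + 1) minus the mean of the 6 libraries for Smgc (black) and the 5 rows nearest to its profile, by library, with WT to the left of the dotted line and DKO to the right. The rows share the peaks in WT 1 and WT 5 and the low values in WT 4 and DKO 5, and they were selected for this likeness.

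The choice of these 5 held in part when libraries were left out. Between 2 and 4 of the 5 stayed among the nearest 5 to Smgc with any 1 library removed, the fewest without DKO 4, and all 5 stayed among the nearest 20 in each case. For the 5 rows nearest to Muc19, between 2 and 5 stayed, the fewest without WT 5, and all 5 were again within the nearest 20. The rows compared were those with a mean of at least 20 normalized counts over all 6 libraries, and were not chosen anew each time. Cst10 and Mup4 reached that mean through WT 5, with 5292 and 216 normalized counts there and at most 24.7 and 4.74 elsewhere. That they stayed near Muc19 without WT 5 is thus partly fixed by the choice of rows.

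The rows most like Muc19 were Bpifa2, Dcpp3, Cst10, Mup4 and Dcpp1, at distances of 0.546 to 1.56. Bpifa2 encodes the parotid secretory protein, which the neonatal SMG and the demilune cells of the sublingual gland also make, demilunes being the serous caps on mucous acini. It had 105, 101 and 88122 counts in the WT libraries 1, 4 and 5, and 3632, 70 and 80 counts in those labelled DKO. Its profile was the closest of all, with WT 5 highest and DKO 1 second, as for Muc19.

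The demilune cell and parotid proteins Dcpp1, Dcpp2 and Dcpp3 are near-identical copies of one another, so how reads divide among them is uncertain. Dcpp1 had 14, 41 and 7360 counts in WT and 478, 55 and 20 in DKO. Dcpp2 had 1, 13 and 19930 against 1044, 2 and 0. Dcpp3 had 6, 2 and 11251 against 1277, 10 and 6. All 3 were high in WT 5 and, at a lower level, in DKO 1, and the groups overlapped in each.

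The summed normalized counts of these 4 genes, the list of demilune and neonatal secretory proteins, ran from 125 to 113447 in WT and from 122 to 6102 in DKO. All 4 were excluded from testing by Cook's filter in DESeq2, as Muc19 was, and none was called by edgeR or limma-voom. Their median log2 fold change was -3.90, against 0.00 over all rows. Like that of Muc19, it rested on WT 5 and DKO 1, being 4.58 without WT 5, -8.45 without DKO 1 and 0.14 without both, and it was -1.26 in limma-voom and -0.11 with the replicate number as a block. Between the 2 libraries with abundant Muc19, the normalized count was 15.0 times higher in WT 5 than in DKO 1 for Muc19, 22.9 times for Bpifa2, 14.5 times for Dcpp1, 18.0 times for Dcpp2 and 8.32 times for Dcpp3. For Smgc the same ratio was 5.09.

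Other secretory rows were high in WT 5 and not to the same degree in DKO 1. Amy1, salivary amylase, had 27624 counts in WT 5, 237 in DKO 1 and between 114 and 262 in the other 4 libraries, a ratio of WT 5 to DKO 1 of 110 in normalized counts. Dnase1, a secreted nuclease that the parotid makes in quantity, had 5765 in WT 5, 149 in DKO 1 and between 27 and 140 elsewhere, a ratio of 36.5. Cst10, a cystatin, had 5909 in WT 5, 26 in DKO 1 and at most 1 elsewhere. Mup4, a major urinary protein with close copies, had 241 counts in WT 5 and 5 in DKO 1, and 0 in the other 4 libraries, where up to 3 counts remain possible. The rise from DKO 1 to WT 5 was therefore much steeper for Amy1, Dnase1 and Cst10 than for Muc19.

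Of the parotid list, Car6, a secreted carbonic anhydrase that the SMG makes too, had between 545847 and 929514 counts in every library. Prh1, a proline-rich protein, had at most 1. Prpmp5 was not found in the table. None of the 3 rows tested in this list was called in DESeq2, 2 of them for lack of a test under Cook's filter, 1 had an unadjusted p below 0.05, and none was called by edgeR or limma-voom. DESeq2 called 2 without WT 4, and 1 each without WT 1, without DKO 1, with Cook's filter off and with the replicate block. The median log2 fold change of -4.33 rested on WT 5, being -0.09 without it, -0.61 without WT 5 and DKO 1, -2.23 in limma-voom and -1.81 with the replicate block.

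Ren1, renin, a granular duct product of the mouse SMG, went the other way. It had 47665 and 49381 counts in WT 1 and WT 4 and 93 in WT 5. In the libraries labelled DKO it had 119 counts in DKO 1, then 11964 and 20443. It was thus low in WT 5 and DKO 1, the same libraries in which Muc19 was high, and its part in the Muc19 result was not tested. The other granular duct genes did not share that pattern. In the granular duct list 4 of 6 genes tested were lower in DKO and none higher, with a median log2 fold change of -0.95. edgeR called 1 of the 6 and limma-voom 2, and with WT 5 and DKO 1 left out DESeq2 called 4.

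**Figure D5:**
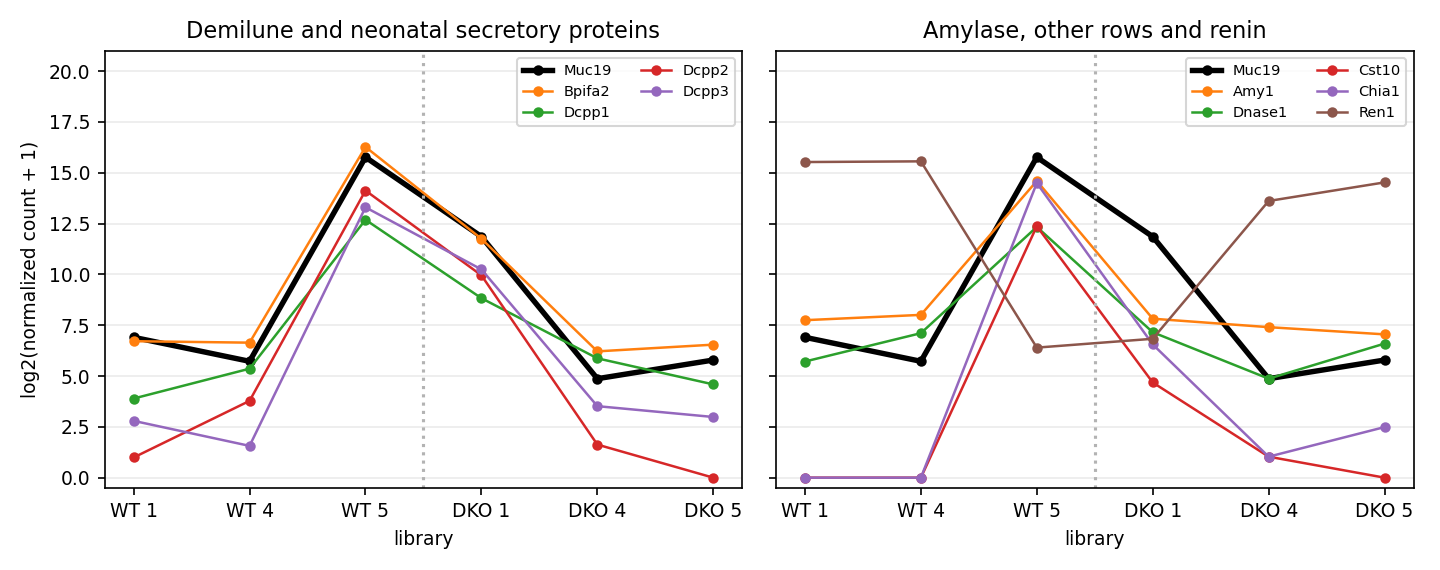
Log2(normalized count + 1) of Muc19 (black) by library, with the 4 demilune and neonatal secretory protein genes on the left and, on the right, Amy1, Dnase1, Cst10, Chia1 and Ren1. Bpifa2 and Dcpp1 to Dcpp3 are high in WT 5 and DKO 1, Amy1, Dnase1, Cst10 and Chia1 peak in WT 5 with DKO 1 much lower, and Ren1 is low in WT 5 and DKO 1.

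The other gel-forming mucins were near or at zero in all glands. Muc5ac, Muc5b and Muc6 had 0 counts in all 6 libraries, which allows up to 3 counts in each. Muc2 had between 1 and 8 counts, too few for an adjusted p, and it was not called by any of the 3 tools. WT 5 and DKO 1, the libraries with abundant Muc19, thus had no counts of the other 3 mucins.

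Most regulators and enzymes of mucous cells were detected. Of the 11 listed genes, 9 were tested, and 2 were higher and none lower in DKO (median log2 fold change 0.23, or -0.01 with total counts as size factors, where the median of all rows was -0.23). Gcnt3, a glycosyltransferase of mucin glycans, had few counts and varied widely, with 8, 8 and 40 in WT and 16, 42 and 0 in DKO. Agr2, a protein disulfide isomerase that mucins need for folding, differed by 1.11 on the log2 scale, with an SE of 0.18 (DESeq2, adjusted p = 3.64e-07), and the adjusted p was 0.0743 in edgeR and 0.0622 in limma-voom. Creb3l1, a transcription factor of secretory cells, differed by 0.58 with an SE of 0.12 (DESeq2, adjusted p = 5.03e-04), with adjusted p-values of 0.140 in edgeR and 0.143 in limma-voom.

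Spdef, a transcription factor of mucous and goblet cells, had 1042, 880 and 1086 counts in WT and 1108, 1213 and 974 in DKO (log2 fold change 0.26, SE 0.12, DESeq2 adjusted p = 0.270). It did not rise in the libraries where Muc19 did. Foxa3 and Ern2, which mark mucous cells in other tissues, had 0 counts in all 6. The summed list lay between 7209 and 7995 normalized counts in WT and between 9083 and 11314 in DKO. That sum was mostly Galnt3, Creb3l1, C1galt1 and Spdef, and it did not set WT 5 or DKO 1 apart from the rest of their groups. Among mucin enzymes with few counts, Galnt12 had 52, 36 and 125 counts in WT and 110, 77 and 113 in DKO. St6galnac1 had 47, 38 and 60 against 70, 51 and 28, so it was highest of its group in both WT 5 and DKO 1.

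Markers of intercalated ducts, the adult site of Smgc, were read gene by gene. Over all 6 libraries Kit ran from 475 to 920 normalized counts, Gstt1 from 86.8 to 148 and Gfra3 from 59.4 to 91.0, where Smgc ran from 18428 to 292306. Summed with Sox9 and Sox10, which are also expressed outside these ducts and make up most of the total, the list lay between 3107 and 3225 in WT and between 2780 and 2881 in DKO. Of the 5, 1 was lower and none higher in DKO (median log2 fold change -0.02). Kit, a receptor tyrosine kinase of intercalated duct cells, had 930, 795 and 897 counts in WT and 501, 542 and 504 in DKO, and the groups did not overlap, which was also the case for 20.3% of all rows tested. DKO over WT gave -0.63 on the log2 scale, with an SE of 0.13 (DESeq2, adjusted p = 4.32e-04). The adjusted p was 0.108 in edgeR, 0.110 in limma-voom and 0.0960 in DESeq2 without WT 5 and DKO 1.

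Gstt1, a glutathione transferase, had 150, 105 and 165 counts in WT and 103, 83 and 85 in DKO (log2 fold change -0.50, SE 0.23, DESeq2 adjusted p = 0.291). Gfra3, a receptor of the GDNF family, had between 60 and 93 counts in all 6 libraries and was not called. Sox9 and Sox10, transcription factors of ducts and acini, were not called.

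Acinar markers, which define the labelled tissue, were led by Spt1, the gene now named Mucl2, with 8298700 to 12174200 normalized counts. The 9 acinar genes together, mostly Spt1, took between 35.3% and 42.8% of the counts of each library, and DESeq2 called 3 of them higher in DKO and none lower, where edgeR and limma-voom called 2 each (median log2 fold change 0.39). Mucl1, a small secreted mucin-like protein of acini, was low in the WT glands, with 241, 64 and 105 counts in WT 1, 4 and 5 against 666809, 833104 and 737918 in DKO 1, 4 and 5. It separated the groups in every library, unlike Smgc and Muc19. All 5 myoepithelial genes were lower in DKO in DESeq2 (median log2 fold change -0.74), 4 of them still without WT 5 and DKO 1, and none was called by edgeR or limma-voom.

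Lymphocyte markers varied between glands. The 5 genes summed to between 19.6 and 177 normalized counts in WT and between 2.31 and 7.32 in DKO, with 2 lower in DKO in DESeq2, none higher and none called by edgeR or limma-voom (median log2 fold change -4.97, or -2.62 without WT 1). With at least 10 counts in 3 libraries required, DESeq2 called none of them, and without WT 4 it called 4. WT 1, the library with the most Smgc, had the highest sum, with 61 counts of Ms4a1 and 38 of Cd8a, and the part of these cells in the Smgc level was not tested. The 3 libraries labelled DKO had at most 1 count of Ms4a1 and 0 of Cd8a. The skeletal muscle list summed to between 43.5 and 52.8 normalized counts over the 6 libraries, and none of its 3 tested genes was called or had an unadjusted p below 0.05 in DESeq2, nor was any called by edgeR or limma-voom (median log2 fold change 0.00).

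Genes that neighbour the locus were read in the same way. Within 1 Mb of either end, 24 other genes are annotated, 15 were in the table and 9 were tested. None was called in DESeq2, 2 had an unadjusted p below 0.05, and none was called by edgeR or limma-voom (median log2 fold change 0.26). Lrrk2, a kinase gene that ends 22.1 kb upstream of Smgc, had 326, 130 and 229 counts in WT and 130, 109 and 99 in DKO. DKO over WT gave -0.90 on the log2 scale, with an SE of 0.29 (DESeq2, adjusted p = 0.0540), and the adjusted p was 0.620 without WT 1 and 4.29e-04 without WT 4. WT 1 and WT 5 held its highest values, as they did for Smgc, but its 3 DKO libraries lay close together, where those of Smgc differed 6.39-fold.

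Kif21a, a kinesin motor gene, had between 2014 and 2522 counts in all 6 libraries (log2 fold change 0.27, SE 0.11, DESeq2 adjusted p = 0.158), with an adjusted p of 0.0379 without WT 4. Slc2a13, an inositol transporter gene 265 kb from the locus, had between 440 and 600 counts. Cntn1, a cell adhesion gene 117 kb beyond the end of Muc19, had 15, 16 and 9 counts in WT and 13, 38 and 2 in DKO, a wide range at a low level. Its DKO libraries stood in the same order as those of Smgc, 4 above 1 above 5, and its WT libraries did not. In normalized counts, Lrrk2, Kif21a, Slc2a13 and Cntn1 did not have their 2 highest values in WT 5 and DKO 1, as Muc19 did. The raw counts of Slc2a13 were highest there, at 600 and 592, but with 584 in WT 1.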

How the data were processed

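RNA of 6 SMGs was sequenced by the authors from unstranded Nextera XT libraries on a HiSeq2500. Raw counts by gene symbol were deposited in an unfiltered table of 43280 rows, which was used here. Their filtered and CPM tables were not used. The submitters' processing notes name STAR 2.5.2a, DESeq2, edgeR, limma and the builds GRCm38, mm10 and GRCh38. The counting tool, the annotation and the handling of reads shared by genes are not given in the sources used here.

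Rows with at least 10 counts in all were tested (18606) with DESeq2 1.42.0 in R 4.3.3, by the two-sided Wald test on median-of-ratios size factors with Benjamini-Hochberg adjustment and a threshold of 0.05. An adjusted p was missing for 2556 rows, 2525 of them for low counts and 31 through Cook's filter. Fold changes are unshrunken and of DKO over WT. Groups follow the labels, with 3 libraries each. A chi-square of the counts of 2 libraries of a group, divided by its degrees of freedom, was 16.8 to 43.4. Libraries of a group thus differed by more than counting error. This value cannot tell whether 2 libraries came from the same animal. With 3 against 3, a two-sided permutation test of a single value cannot go below 0.1, so none was run. Normalized counts are counts divided by the size factor.

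Genes named are Smgc, Muc19, the targeted pair, 10 gene lists (58 genes, 57 in the table, 50 tested), genes within 1 Mb, and the 5 rows most like each of Smgc and Muc19. Chia1 was shown in addition, after its values were seen. Smgc, Muc19 and the lists were chosen with earlier results of these data known. Mucl2 was matched to the row Spt1. Coordinates are GENCODE M21, which matched 39469 row names (91.2%). Promoter sequence is from RefSeq. The alternatives (14 planned, 1 added after seeing the data) include edgeR 4.0.16, limma-voom (limma 3.58.1), other size factors and filters, a replicate block, and each library left out. The fits were tested on simulated data.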

Additional observations from a re-analysis of the deposited data

How the results depend on the processing

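The level of Smgc kept its direction in all 15 alternatives, from -2.61 to -0.87 log2 with 1 library left out and from -1.86 to -1.36 in the other planned ones. The fold change of Muc19 ran from -8.82 (without DKO 1) to 3.89 (without WT 5, reversed) with 1 library left out, and from -4.02 to -0.96 in the others, the replicate block giving -0.96 and limma-voom -1.85. The difference in the log2 ratio of Muc19 to Smgc ran from -2.92 to 2.17, reversed without WT 5 (2.17) and without DKO 4 (1.44). The 539 rows called became 10 in edgeR, 7 in limma-voom, 343 with the replicate block, 1469 with total counts as size factors, 183 without WT 5 and DKO 1, and 149 to 817 with 1 library left out. Total counts moved the median of all rows to -0.23 and the split from 189 higher and 350 lower to 62 and 1407. Among the list genes, 17 were called, against 3 in edgeR, 4 in limma-voom and 14 to 21 with 1 library left out. Among neighbours of the locus, 1 was called with at least 10 counts in 3 libraries, 1 with total counts, and 0 to 2 with 1 library left out. Same-numbered libraries had correlations of -0.17 to -0.01 and none of the 6 was closest to its own number, so the replicate numbers were not taken to pair the glands. The cause of these changes was not tested. Depth was no limit for Smgc. For Muc19 the 4 low libraries hold 27 to 120 counts, and zeros of other mucins allow up to 3 counts.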

Other observations

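Beyond the nearest 5 rows, the next 5 in likeness to Smgc were Ighv1-18, Scn3a, Dcdc2a, Smoc1 and Ly9. Dcdc2a had 142, 17 and 71 counts in the WT libraries 1, 4 and 5 and 25, 32 and 18 in DKO 1, 4 and 5. Smoc1, which encodes a secreted calcium-binding matrix protein, had 107, 22 and 62 against 17, 31 and 13. The next 5 for Muc19 were BC048546, Dcpp2, Prb1, Chia1 and Ighv5-6. BC048546 had 47408 counts in WT 5, 3726 in DKO 1 and between 4 and 68 in the other 4 libraries, a ratio of WT 5 to DKO 1 of 12.0 in normalized counts, near the 15.0 of Muc19. Chia1, an acidic chitinase, had 25750 counts in WT 5, 98 in DKO 1 and at most 4 elsewhere, a ratio of 248. Prb1, a proline-rich protein, had 162 counts in WT 5, 4 in DKO 1 and at most 1 elsewhere.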
